A study of Mus musculus with 12 samples.

Results

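The ventral lobe of the prostate was compared between mice labelled as Med1 knockouts and wild-type mice, all 16 weeks old. The comparison uses 6 of the 12 arrays of the series, 3 from the ventral lobe of knockouts and 3 from the ventral lobe of wild-type mice, taken by their labels, and the other 6 arrays hold the lateral lobe of both genotypes. Total RNA was read on single-colour Affymetrix expression arrays. The labels give the genotype as a knockout of Med1 without naming the allele, the strain, any Cre driver or the cells in which Med1 was removed, and nothing in them tells separate animals from repeat arrays. The p-values therefore measure only the spread between these arrays, which may be technical. Values are log2 signals, and each of 18194 genes is represented by the probe set with the highest mean signal among those annotated to that gene alone.

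Med1 encodes a subunit of Mediator, the large complex that carries signals from transcription factors bound at enhancers to RNA polymerase II. The protein is the part of Mediator best known for contacting ligand-bound nuclear receptors, the androgen receptor among them. The ventral prostate of the mouse is a set of branching glands whose tall luminal cells make and export large amounts of secreted protein under the control of androgens. A thin layer of basal cells, a sheath of smooth muscle and a fibroblast-rich stroma surround these glands.

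The ventral arrays had medians between 6.39 and 6.43, and arrays of a group correlated at 0.992 to 0.996 over probe sets, against 0.987 to 0.993 between genotypes. The luminal keratins Krt8 (12.19 in wild type and 12.37 in knockout) and Krt18 (12.93 and 12.73) and the prostate transcription factor Foxa1 (11.82 and 11.77) were high in both genotypes and none of these 3 genes passed the test. Wild-type replicate 3 stood apart in its seminal vesicle signal. Svs2, a seminal vesicle secretory protein, read 7.55 there against 2.80 and 2.99 in the other wild-type arrays and 3.58 to 3.94 in the knockout arrays, and 9 measured seminal vesicle genes averaged 5.15 there against 4.06 in wild-type replicate 1. Of those 9 genes 7 had low signal in both genotypes and 0 passed by limma (all genes: 9.08%), with 2 at an unadjusted p under 0.05. Low signal means a group mean under 4.73, the lower quartile of the ventral arrays. Where 1 group lies in that range, its difference from the other is given as a lower bound. The median difference of all genes was -0.02. Among the genes that passed, replicate 3 was the wild-type array farthest from the knockout for 43.9% of the lower and 40.3% of the higher genes, and knockout replicate 3 the knockout array farthest from wild type for 47.7% and 61.5%.

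The targeted gene was examined first. The probe set of Med1 read 9.48, 9.52 and 9.29 in the 3 wild-type arrays and 8.90, 8.99 and 8.68 in the 3 knockout arrays. Every knockout array lay below every wild-type array, and the signal in the knockout stayed well above the low range. The mean fell from 9.43 ± 0.12 to 8.86 ± 0.16 (SD, n = 3 each). This 1.48-fold fall (-0.57 ± 0.12, SE) passed by limma with an adjusted p of 0.0119. All 7 Med1 probe sets were lower in the knockout. When every probe set was tested, 4 of them passed, with differences of -0.48, -0.57, -0.64 and -0.70, and 3 did not, with -0.10, -0.25 and -0.40. The sources used here do not say which of these lie in the deleted part of the gene. Without knockout replicate 3 the call for Med1 was lost (-0.48, limma adjusted p = 0.0518).

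No other subunit of Mediator passed. Of 33 measured subunits 0 were higher by limma (4 at an unadjusted p under 0.05) and 1, Med1 itself, was lower (all genes: 5.88% higher, 3.2% lower). Their median difference was -0.01, beside -0.02 over all genes. Among the 40 genes nearest to Med1 on chromosome 11 of GRCm38.p6, 20 on each side, 0 were higher by limma (1 at an unadjusted p under 0.05) and 1 was lower, with a median difference of -0.04. In sets this small, counts of 0 and 1 lie near the shares over all genes. The lower neighbour was Gsdma, which encodes a pore-forming gasdermin of epithelia, at 6.27, 6.08 and 6.08 in wild type and 4.01, 4.68 and 4.82 in knockout. Its difference was -1.64 ± 0.16 (SE; limma adjusted p = 3.09e-05), a lower bound because the knockout signal is low.

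Across the genome 1652 genes passed (9.08% of 18194; limma, Benjamini-Hochberg adjusted p under 0.05), 1069 higher (5.88%) and 583 lower (3.2%) in the knockout. Higher genes outnumbered lower ones, also at a difference of at least 1.5-fold (426 against 208), but not among differences of at least 2-fold or 4-fold. The lower genes had a median difference of -0.49 and the higher genes one of 0.53. Differences of at least 2-fold were seen in 70 higher and 72 lower genes, and differences of at least 4-fold in 4 higher and 14 lower genes. The arrays of the genotypes did not overlap for 5359 genes (29.5%), and 1636 of the 1652 genes were among them. The split between directions depends on the centring of the arrays: with each array centred on the median of the genes tested, 861 genes were higher and 926 lower. Without wild-type replicate 1, wild-type replicate 3 or knockout replicate 3 the count fell to 1033, 941 and 1086.

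**Figure D1:**
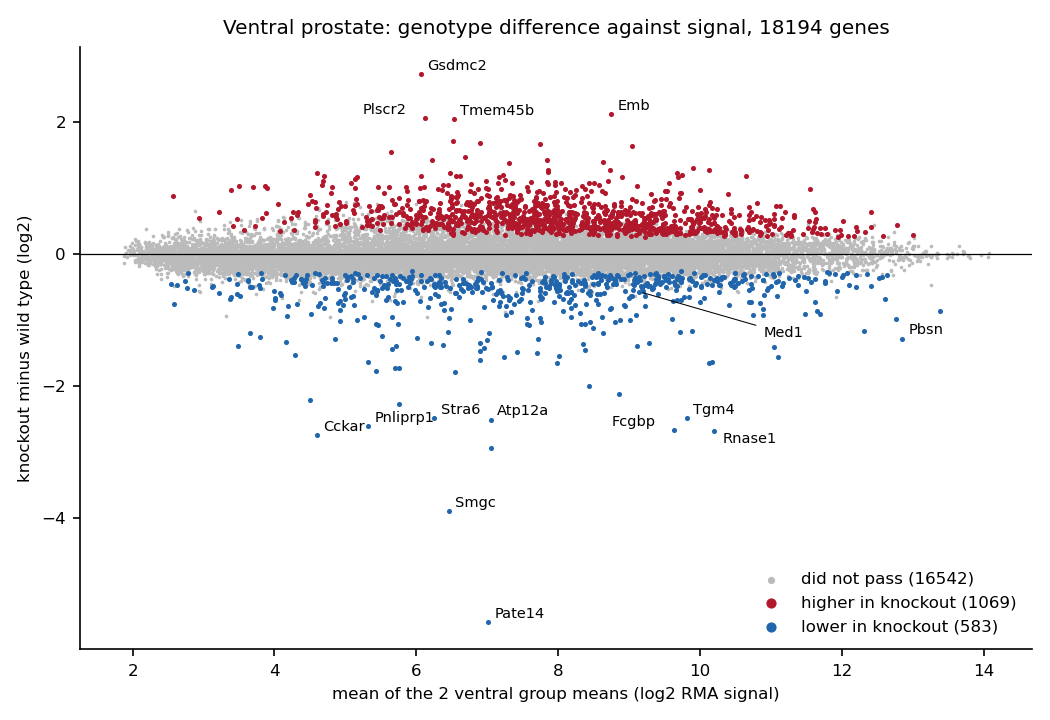
Each point is 1 of 18194 genes, with the mean of the ventral wild-type and knockout means on the x axis (log2 signal) and knockout minus wild type on the y axis (log2). Red points are the 1069 genes that passed as higher and blue points the 583 that passed as lower; Pate14 lies lowest at -5.58, and Gsdmc2 highest at 2.73. The unlabelled blue point near Atp12a is an uncharacterized locus, which the naming rule passes over.

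Many secretory products of the prostate were lower. Of 38 measured products 14 were lower and 2 higher (all genes: 3.2% lower, 5.88% higher), and their median difference was -0.20. Their summed linear signal ran from 84100 to 93800 in wild-type arrays and from 58700 to 60400 in knockout arrays. The count of lower products was 13 to 15 when each array was left out in turn, and the 2 higher became 1 without wild-type replicate 1 or 3 or knockout replicate 1 or 3. In bulk tissue, fewer cells of a type and less RNA per cell cannot be told apart.

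Pate14, a member of the Pate family of small cysteine-rich secreted proteins, had the largest difference of any gene named. It read 10.01, 9.29 and 10.12 in wild type and 4.03, 4.24 and 4.42 in knockout. All wild-type arrays are bright and all knockout arrays lie in the low range. The difference was -5.58 ± 0.17 (SE; limma adjusted p = 3.78e-10), which is at least 47.8-fold. Smgc, a secreted mucin-like protein first known from the submandibular gland, read 8.14, 7.90 and 9.19 in wild type and 3.73, 4.48 and 5.33 in knockout. Its knockout arrays spread more widely than those of Pate14 but stayed far below wild type, with a difference of -3.90 ± 0.35 (SE; limma adjusted p = 2.02e-05). Its knockout mean of 4.51 is low signal, so the fall is at least 14.9-fold.

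Tgm4 encodes the prostate transglutaminase that cross-links seminal proteins into the copulatory plug. It read 11.20, 10.78 and 11.21 in wild type and 8.40, 8.31 and 9.03 in knockout, so it remained well measured in both genotypes, with a difference of -2.48 ± 0.16 (SE; limma adjusted p = 1.28e-06) or 5.59-fold. Pbsn encodes probasin, the androgen-regulated lipocalin whose promoter is widely used to drive transgenes in the prostate. It read 13.50, 13.41 and 13.57 in wild type and 12.25, 12.10 and 12.28 in knockout. These narrow groups were 2.43-fold apart (-1.28 ± 0.09, SE; limma adjusted p = 1.72e-06).

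The promoters of these 4 genes are shown, those of Pate14, Smgc and Tgm4 because these products are among the 30 largest falls, and that of Pbsn because it is a widely used androgen-regulated promoter; several products fell by more than Pbsn. The sequences are from RefSeq on GRCm38.p6, end at the base before the annotated start, and were searched on both strands for TATAAA, for AGAACA (a single arm of the androgen response element) and for TGTTTAC (a forkhead motif), with matches in capitals. Each line gives 1 stretch.
Pate14, chr9:36638603-36638762, minus strand: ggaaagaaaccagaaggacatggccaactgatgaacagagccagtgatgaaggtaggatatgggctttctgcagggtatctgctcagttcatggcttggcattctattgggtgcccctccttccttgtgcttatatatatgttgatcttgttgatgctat
Tgm4, chr9:123034641-123034740, plus strand: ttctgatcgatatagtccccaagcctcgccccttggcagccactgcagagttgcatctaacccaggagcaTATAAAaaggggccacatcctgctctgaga
Pbsn, chrX:77853501-77853660, minus strand: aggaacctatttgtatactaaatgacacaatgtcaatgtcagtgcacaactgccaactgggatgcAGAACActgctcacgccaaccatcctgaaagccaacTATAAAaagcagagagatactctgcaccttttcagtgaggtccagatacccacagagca
Smgc, chr15:91838208-91838327, plus strand: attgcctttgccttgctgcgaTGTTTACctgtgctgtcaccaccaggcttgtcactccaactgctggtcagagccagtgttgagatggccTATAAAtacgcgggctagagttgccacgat

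With the annotated start at 1, TATAAA begins at -30 in Tgm4 and Smgc and at -59 in Pbsn. The stretch of Pbsn also holds AGAACA at -95, and that of Smgc holds TGTTTAC at -99. The Pate14 stretch has none of the 3 motifs. In windows of 300 bases, 250 before to 50 after the start, TATAAA occurred in 5 of 13 windows of the lower secretory products (38.5%), in 8 of 35 windows of all measured secretory products (22.9%) and in 9.76% of 18010 windows of measured genes. AGAACA occurred in 6 of the 13 (46.2%), in 13 of the 35 (37.1%) and in 14.6% of all. The 13 windows belong to 12 of the 14 lower products. The full element, AGAACA facing its inverted repeat across 3 bases, was found in 0 of the 13 and in 2 of the 18010. A match is a description of letters and not a measured binding site.

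The 30 largest falls held other secreted proteins as well. Rnase1, a secreted ribonuclease, read 11.37, 11.24 and 12.01 in wild type and 8.86, 8.78 and 8.94 in knockout, with a difference of -2.68 ± 0.15 (SE; limma adjusted p = 3.97e-07). Mmp7, the secreted protease matrilysin, read 9.96, 9.65 and 10.16 against 7.623, 7.796 and 8.002 (-2.12 ± 0.12, SE; limma adjusted p = 5.18e-07). Pnliprp1, a pancreatic lipase-related protein, read 6.66, 6.42 and 6.80 against 4.28, 3.72 and 4.06. Its knockout arrays were in the low range, so the difference of -2.60 is a bound. Fcgbp, a large protein of mucus, fell from 10.98 to 8.30, and Defa39, an alpha-defensin, from 9.43 to 7.43. Fam3b, a secreted cytokine-like protein, fell from 10.95 to 9.30.

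Further secretory products fell by less. Msmb, beta-microseminoprotein, read 13.76, 13.77 and 13.91 in wild type and 12.95, 12.86 and 13.05 in knockout, a 1.81-fold fall with no overlap (limma adjusted p = 2.78e-05). Wfdc3, a whey acidic protein domain inhibitor, fell by 1.17, Apof, an apolipoprotein, by 0.83, and Pigr, the receptor that carries polymeric immunoglobulin across epithelia, by 0.68. Qsox1, which forms disulfide bonds in secreted proteins, fell by 0.49. The products that rose included Ggh, a secreted glutamyl hydrolase, by 0.64. Msmb, Apof, Wfdc3 as a secretory product, Pigr, Qsox1 and Ggh were picked after their values were seen.

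Several of the genes that fell read higher in the lateral lobe of wild-type mice than in the ventral lobe. Pate14 averaged 13.25 in lateral and 9.81 in ventral wild-type arrays, Tgm4 13.60 and 11.06, Fcgbp 13.72 and 10.98, Mmp7 13.06 and 9.93, Gsdma 11.82 and 6.14, and Chn2 10.85 and 6.89. These levels are set across lobes that appear to have been normalized separately, and over all genes the lateral level was lower by a median of 0.34. Of the 30 largest falls 8 were at least 4-fold brighter in lateral than in ventral wild type (0.896% of all genes) and 6 at least 4-fold dimmer (1.78% of all genes). Naip6 was one of the dimmer genes, at 5.66 in lateral and 11.75 in ventral wild type, and Smgc, at 5.80 and 8.41, another. Of the 163 genes that were at least 4-fold brighter in lateral wild type 26 were lower (16%) and 16 higher (9.82%) in the ventral knockout, and of the 323 that were at least 4-fold dimmer 49 were lower (15.2%) and 36 higher (11.1%). The part that lateral tissue in the ventral samples has in these falls was not tested.

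Genes for transport across the epithelial membrane included large falls and rises. Of 46 measured ion and water transport genes 4 were higher and 5 lower (all genes: 5.88% higher, 3.2% lower). Atp12a, a proton pump that exchanges protons for potassium, read 8.17, 7.98 and 8.78 in wild type and 6.11, 5.16 and 6.12 in knockout. Its groups lay far apart (-2.51 ± 0.23, SE; limma adjusted p = 2.37e-05). Scnn1a, the alpha subunit of the epithelial sodium channel, went the other way, at 6.70, 6.96 and 7.07 against 8.48, 8.45 and 8.80. All 3 of its knockout arrays were above wild type, by 1.67 ± 0.13 on average (SE; limma adjusted p = 3.94e-06). Kcnq1, a potassium channel, rose by 1.08, and Clca1, a secreted regulator of chloride channels, by 1.23 from a low wild-type signal. Car2, a carbonic anhydrase, fell by 1.03, Aqp5, a water channel of glands, by 0.84, and Atp6v1c2, a subunit of the vacuolar proton pump, by 0.53.

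Carriers of zinc, retinol and amino acids were among the largest falls. Slc30a2, which moves zinc into vesicles, read 7.02, 7.43 and 7.90 in wild type and 5.58, 5.92 and 5.46 in knockout (-1.80 ± 0.18, SE; limma adjusted p = 5.28e-05). The other zinc transporters and metallothioneins moved less, with 3 of 25 higher and 2 lower in all (all genes: 5.88% higher, 3.2% lower), counts that fell to 1 higher without knockout replicate 2 or 3, to 0 higher without wild-type replicate 1, wild-type replicate 3 or knockout replicate 1, and to 1 lower without wild-type replicate 3 or knockout replicate 1. Stra6, the membrane receptor through which cells take up retinol, read 7.14, 7.19 and 8.18 against 5.37, 4.77 and 4.88 (-2.49 ± 0.23, SE; limma adjusted p = 2.48e-05). Of 34 amino acid transporters 5 were lower and 1 higher (all genes: 5.88% higher, 3.2% lower), or 2 higher without any 1 knockout array. Slc7a12 fell from 5.61 to the low range at 3.39, Slc7a5, which imports large neutral amino acids, by 1.03 and its relative Slc43a2 by 0.54, while Slc43a1 rose by 0.72.

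The other large falls were spread over receptors, enzymes and regulators. Cckar, a receptor for cholecystokinin, read 5.72, 5.56 and 6.65 in wild type and 3.37, 3.27 and 3.05 in knockout, at least 6.69-fold. Chn2, which switches off the GTPase Rac, fell from 6.89 to 4.62, and Bank1, a signalling scaffold, from 6.31 to 4.54, both to low signal. Piezo2, a stretch-gated ion channel, fell from 11.88 to 10.32. Sp5, a transcription factor induced by Wnt signalling, fell from 9.11 to 7.65. Hs3st3a1, which sulfates heparan sulfate, fell by 1.73, Clic5, a chloride intracellular channel protein, by 1.66, Upb1, an enzyme of pyrimidine breakdown, by 1.55, Serpinb11, a serpin, by 1.46, Uts2r, the urotensin receptor, by 1.43 and Stmnd1 by 1.42. H2-Q10 and H2-Q5, class I histocompatibility genes, fell from 10.98 to 9.35 and from 8.45 to 6.96, and Naip6, an innate immune sensor, by 1.41. These last 3, like Defa39, belong to families of near-identical genes, and their probes may read several members. All 30 of the largest falls passed at a limma adjusted p of 0.00494 or less, and wild-type replicate 3 was the highest wild-type array in 23 of them.

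**Figure D2:**
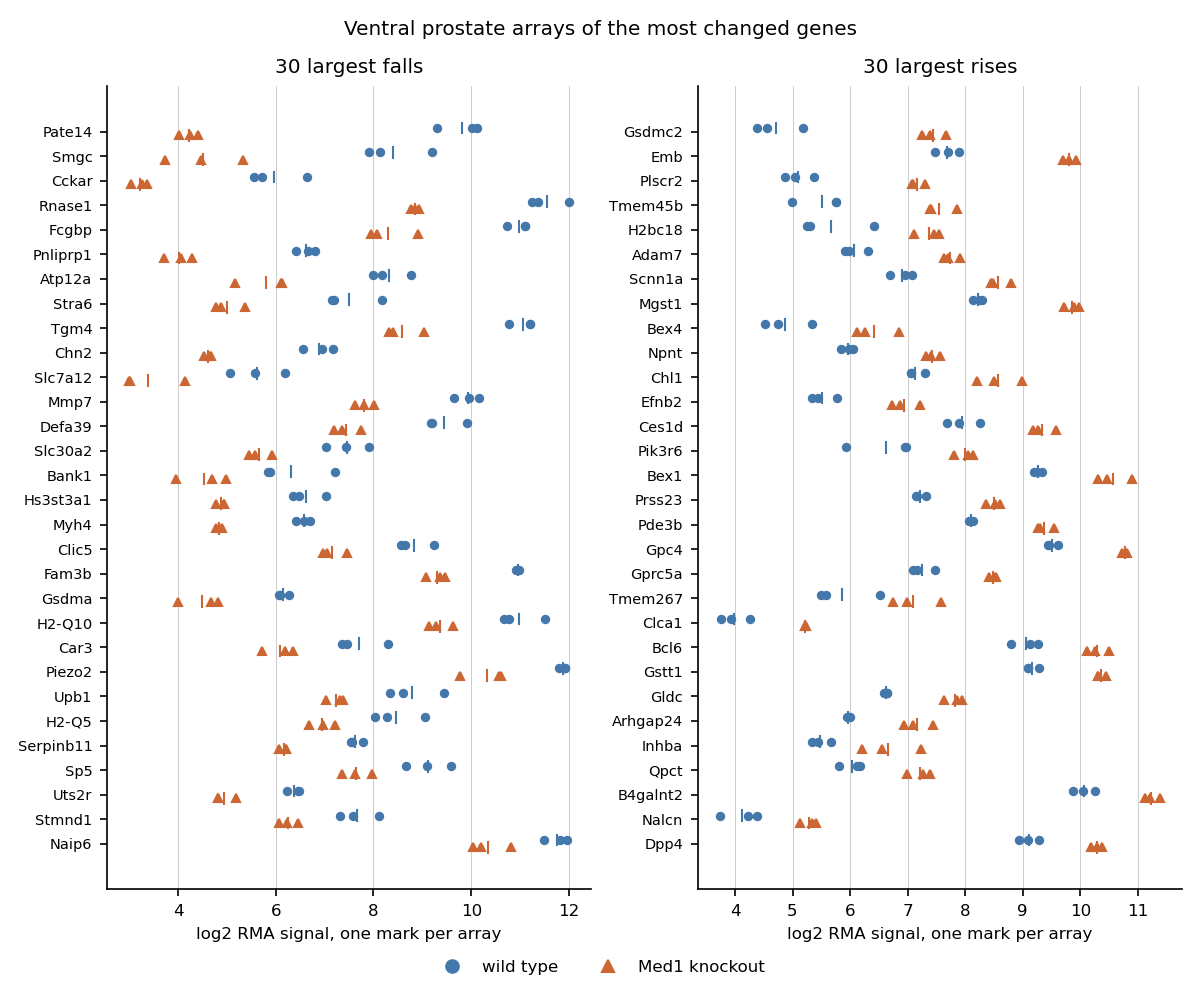
Each row is a gene and each mark 1 ventral array (x axis: log2 signal), with circles for the 3 wild-type and triangles for the 3 knockout arrays and short bars at the group means. The 30 largest falls are on the left and the 30 largest rises on the right, and the marks of the genotypes do not overlap in any row, which the naming rule requires.

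The largest rises began with Gsdmc2, another gasdermin. It read 4.39, 5.18 and 4.55 in wild type and 7.66, 7.24 and 7.39 in knockout, a rise of at least 6.61-fold from a low signal (2.73 ± 0.32, SE; limma adjusted p = 0.000144). Emb, which encodes embigin, a partner of monocarboxylate transporters at the cell surface, read 7.47, 7.90 and 7.71 against 9.80, 9.92 and 9.71 (2.12 ± 0.17, SE; limma adjusted p = 8.33e-06). The arrays of each genotype were close together and the groups wide apart. Plscr2, a phospholipid scramblase, rose by 2.07 and Tmem45b, a membrane protein, by 2.05. Adam7, a member of a family of membrane-anchored metalloprotease-like proteins, rose by 1.68, from 5.99, 6.31 and 5.91 to 7.70, 7.64 and 7.90.

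Some of the 30 largest rises encode enzymes. Mgst1, a membrane-bound glutathione transferase, read 8.24, 8.29 and 8.14 in wild type and 9.72, 9.89 and 9.98 in knockout (1.64 ± 0.12, SE; limma adjusted p = 2.97e-06). Gstt1, another glutathione transferase, rose from 9.16 to 10.35, Ces1d, a carboxylesterase, from 7.94 to 9.34, Gldc, the glycine decarboxylase, from 6.62 to 7.82, and Pde3b, which breaks down cyclic nucleotides, from 8.10 to 9.37. Qpct, which cyclizes glutamine at protein ends, rose by 1.18. Ces1d, Plscr2 and Gsdmc2 have close relatives in the genome that probes may also read.

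The other large rises were of several kinds. Gpc4, a glypican that carries heparan sulfate, read 9.61, 9.45 and 9.44 against 10.81, 10.77 and 10.73 (1.27 ± 0.10, SE; limma adjusted p = 5.99e-06). Npnt, the matrix protein nephronectin, rose by 1.47, Chl1, a neural adhesion molecule, by 1.43, and Efnb2, ephrin-B2, by 1.42. Dpp4, a peptidase on the surface of luminal cells, rose from 9.11 to 10.28. B4galnt2, which adds the sugar of the Sda antigen, rose from 10.06 to 11.24. Bcl6, a transcriptional repressor, read 9.12, 9.27 and 8.79 against 10.26, 10.11 and 10.50, a rise of 1.23 ± 0.14 (SE; limma adjusted p = 0.000133). Prss23, a secreted serine protease, rose by 1.28, Gprc5a, an orphan receptor, by 1.24, Arhgap24 by 1.19, and Nalcn, a sodium leak channel, by 1.18 from a low signal. H2bc18, a histone, rose by 1.71 with a wider spread in wild type (5.26, 6.42 and 5.31), and Bex4 and Bex1 rose by 1.54 and 1.30.

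Calls for 2 of the 30 largest rises were lost when single arrays were left out. Pik3r6, a regulatory subunit of a phosphoinositide kinase, rose by 1.38 (limma adjusted p = 0.0197) and did not pass without wild-type replicate 3 (1.03, adjusted p = 0.0864), knockout replicate 1 (1.30, adjusted p = 0.0605) or knockout replicate 3 (1.35, adjusted p = 0.0672). Tmem267 rose by 1.24 (limma adjusted p = 0.0118) and did not pass without wild-type replicate 1 (1.10, adjusted p = 0.0522), wild-type replicate 3 (1.05, adjusted p = 0.0573) or knockout replicate 3 (0.998, adjusted p = 0.0580). Without both wild-type replicate 3 and knockout replicate 3, H2bc18 (limma adjusted p = 0.0697), Qpct (adjusted p = 0.0697) and Nalcn (adjusted p = 0.0522) did not pass either. Of the 60 genes, 24 had more than 1 probe set. All probe sets had the same sign for 22 of these, at least 2 passed the same way for 16, and 0 passed the other way by limma. Inhba and H2-Q5 each had 1 probe set of either sign.

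Genes that fold and move proteins through the endoplasmic reticulum were lower as a group. The reticulum is where secreted proteins are folded, and the unfolded protein response adjusts its capacity to the load. Of 80 measured genes 18 were lower and 0 higher by limma (all genes: 3.2% lower, 5.88% higher), against 36 and 1 at an unadjusted p under 0.05. Of the 80 genes 72 had a negative difference and the median was -0.20. The list mean ran from 10.92 to 11.01 in wild-type arrays and from 10.71 to 10.80 in knockout arrays. The count of lower genes was 11 without wild-type replicate 2, 8 without wild-type replicate 3 and 9 when the ventral arrays were fitted alone.

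Derl3, which helps to move misfolded proteins out of the reticulum, led this list at 10.08, 10.35 and 10.50 in wild type and 9.05, 9.04 and 9.31 in knockout (-1.18 ± 0.11, SE; limma adjusted p = 2.75e-05). Creb3l4, a membrane-bound transcription factor of the reticulum found in prostate, read 9.24, 9.40 and 9.36 against 8.48, 8.65 and 8.50 (-0.79 ± 0.11, SE; limma adjusted p = 0.00061). Neither gene's arrays overlapped. Sdf2l1, a cofactor of chaperones, fell by 0.54, Agr2, a disulfide isomerase of secretory cells, by 0.49, Lman1, a cargo receptor for glycoproteins, by 0.49, Ssr2, of the translocon, by 0.45, Ostc, of the oligosaccharyl transferase, by 0.44, and Edem1, which marks misfolded glycoproteins, by 0.40. Calr, the lectin chaperone calreticulin, picked after its values were seen, read 12.72, 12.62 and 12.78 against 12.33, 12.50 and 12.18. Its fall of 0.37 (limma adjusted p = 0.0325) did not pass without wild-type replicate 1 (adjusted p = 0.0896), wild-type replicate 3 (adjusted p = 0.116), knockout replicate 1 (adjusted p = 0.0769) or knockout replicate 3 (adjusted p = 0.111).

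The endoplasmic reticulum stress element, CCAAT followed after 9 bases by CCACG, is the sequence through which stress factors act on such promoters. It occurred on either strand in 10 of 74 windows of the measured list members (13.5%), in 2 of 16 windows of the lower ones (12.5%) and in 0.111% of all 18010 windows. The 2 lower genes that hold it are shown, from RefSeq on GRCm38.p6, with the element in capitals. In both it reads on the opposite strand of the one printed.
Derl3, chr10:75893218-75893287, plus strand: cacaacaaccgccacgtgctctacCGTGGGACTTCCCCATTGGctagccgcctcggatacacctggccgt
Calr, chr8:84847042-84847111, minus strand: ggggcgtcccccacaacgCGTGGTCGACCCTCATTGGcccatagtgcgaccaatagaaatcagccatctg

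Synthesis of new protein showed scattered falls. Of 37 aminoacyl-tRNA synthetases and integrated stress response genes 5 were lower and 0 higher by limma (8 and 1 at an unadjusted p under 0.05; all genes: 3.2% lower, 5.88% higher). Ddit4, a stress-induced inhibitor of the growth kinase mTOR, read 11.19, 11.01 and 10.98 in wild type and 10.32, 10.49 and 10.20 in knockout (-0.73 ± 0.10, SE; limma adjusted p = 0.000404). The count of 5 became 2 without wild-type replicate 1 and 3 without wild-type replicate 2 or knockout replicate 1. None of 35 measured ribosomal proteins passed by limma (1 had an unadjusted p under 0.05), and their median difference was -0.01.

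Enzymes that attach sugars to secreted proteins also included strong falls. Of 75 glycosylation genes and mucins 8 were lower and 4 higher (all genes: 5.88% higher, 3.2% lower). Fut2, the fucosyltransferase that makes H antigen in secretions, read 9.59, 9.94 and 9.91 in wild type and 8.557, 8.669 and 8.004 in knockout (-1.40 ± 0.15, SE; limma adjusted p = 5.66e-05). St6galnac4, a sialyltransferase, fell from 7.65 to 6.34, and Galnt7, which extends mucin-type glycans, from 8.59 to 7.77. The 4 higher genes, B4galnt2 among them, became 2 without wild-type replicate 1, wild-type replicate 3 or knockout replicate 1.

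Interferon-stimulated genes were lower. Interferons switch on antiviral genes through a complex that contains Stat2 and Irf9 and binds at an element of GAAA repeated across 2 bases. Of 50 measured genes 16 were lower and 1 higher (all genes: 3.2% lower, 5.88% higher), and the median difference was -0.27. The list mean ran from 8.30 to 8.42 in wild-type arrays and from 8.05 to 8.17 in knockout arrays. The count of lower genes was 10 without wild-type replicate 1 and 11 to 17 without each of the other arrays.

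Of the factors themselves, Stat2 read 8.79, 8.91 and 8.85 in wild type and 8.21, 8.28 and 8.25 in knockout. These groups were tight and apart, with a fall of 0.60 (SE 0.08; limma adjusted p = 0.000289). Irf9 read 8.45, 8.27 and 8.54 against 7.70, 7.70 and 8.11 (limma adjusted p = 0.00668), and Irf7, which amplifies the response, read 7.42, 7.44 and 7.43 against 6.79, 6.82 and 6.57 (limma adjusted p = 0.000746). Knockout arrays were below wild-type arrays for all 3 factors.

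Among antiviral effectors, Oasl1 fell by 0.62, Mx1, which traps viral nucleoproteins, by 0.56, and Isg20, an exonuclease, by 0.39. Mx2 was low in both genotypes. Lgals3bp, a secreted glycoprotein of the response, fell by 0.78. Rsad2, the antiviral enzyme viperin, read 10.23, 9.93 and 10.12 against 9.24, 9.39 and 9.72 (-0.65 ± 0.14, SE; limma adjusted p = 0.0101). Ifit3, which binds viral RNA, read 8.50, 8.86 and 8.50 against 8.03, 7.84 and 8.34. It fell by 0.55 (limma adjusted p = 0.0334) and did not pass in 5 of the 6 fits that left out a ventral array: without wild-type replicate 1 (adjusted p = 0.0530), 2 (adjusted p = 0.120) or 3 (adjusted p = 0.0559) or knockout replicate 1 (adjusted p = 0.0829) or 2 (adjusted p = 0.0976). Ifit2, of the same family, was the 1 higher gene at 0.44 (limma adjusted p = 0.0353), and it did not pass without wild-type replicate 1 (adjusted p = 0.107), 2 (adjusted p = 0.0563) or 3 (adjusted p = 0.101) or knockout replicate 1 (adjusted p = 0.0649) or 3 (adjusted p = 0.130). Rsad2, Ifit3 and Ifit2 were picked after their values were seen.

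The element, GAAA and GAAA with 2 bases between, was found in 17 of 48 windows of measured interferon genes (35.4%), in 3 of 13 windows of the lower ones (23.1%) and in 3.04% of all windows. The 3 lower genes are shown with the element in capitals, as it reads on the opposite strand (RefSeq, GRCm38.p6).
Stat2, chr10:128270258-128270327, plus strand: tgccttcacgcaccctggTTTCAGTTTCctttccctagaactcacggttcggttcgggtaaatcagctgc
Ifit3, chr19:34583354-34583438, plus strand: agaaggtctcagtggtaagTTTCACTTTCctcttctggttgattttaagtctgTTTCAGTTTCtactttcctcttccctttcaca
Rsad2, chr12:26456523-26456592, minus strand: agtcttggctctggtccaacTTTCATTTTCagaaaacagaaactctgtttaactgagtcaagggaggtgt
Ifit3 holds the element at both marked places.

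**Figure D3:**
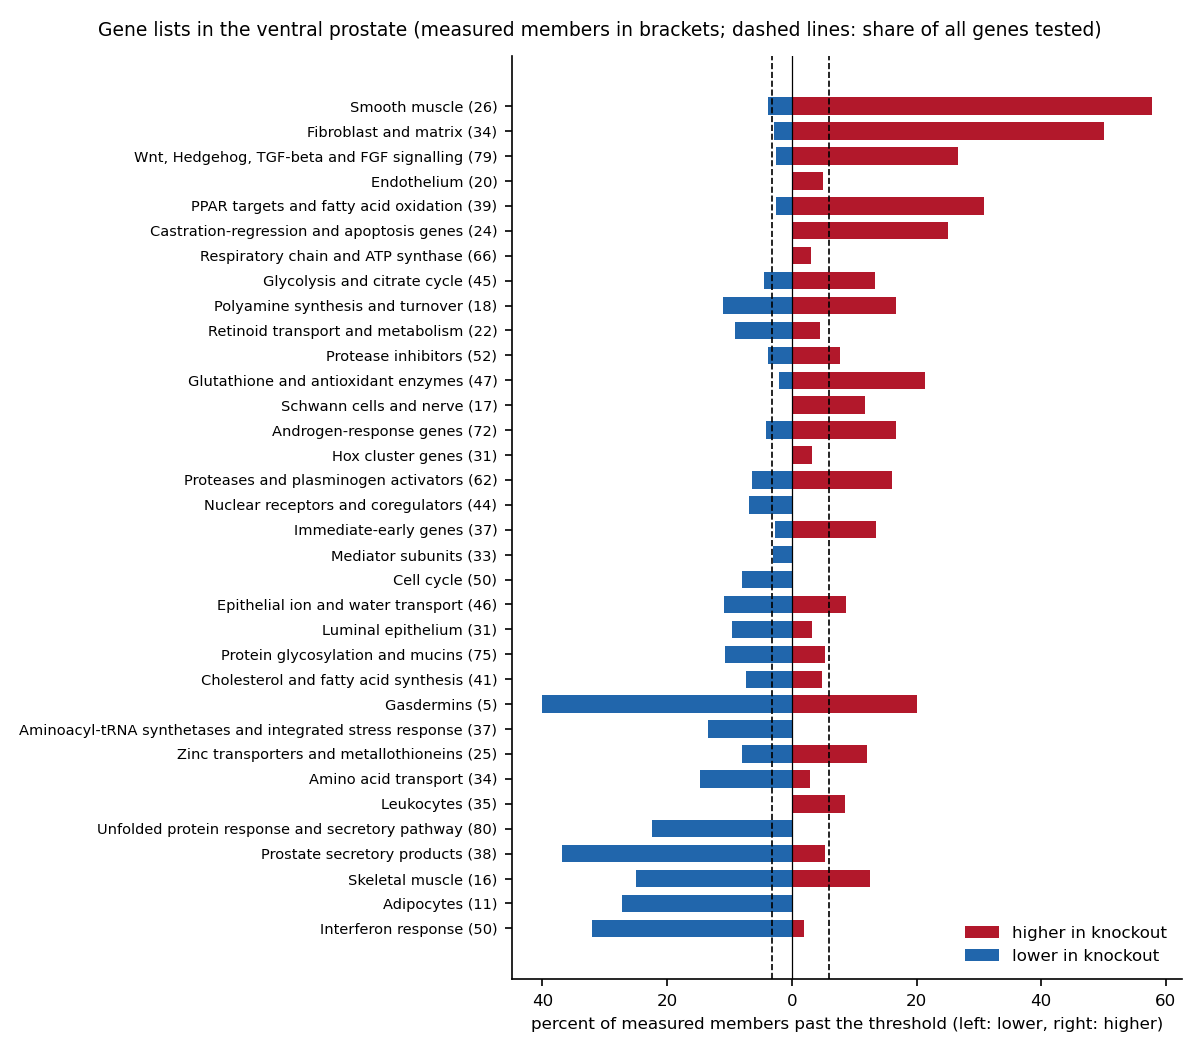
Bars give the percent of each list's measured members (number in brackets) that passed as higher (right) or lower (left) in the knockout, ordered by the median difference of the list. Lists with no member past the threshold are left out. These are the seminal vesicle, basal, neuroendocrine, urothelial, clock and ribosomal protein lists. Dashed lines mark 5.88% higher and 3.2% lower, the shares over all genes tested; smooth muscle and fibroblast genes extend farthest to the right, and gasdermins (5 genes), secretory products and interferon genes farthest to the left.

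Smooth muscle and fibroblast genes were higher. Of 26 measured smooth muscle genes 15 were higher and 1 lower (all genes: 5.88% higher, 3.2% lower), with a median difference of 0.41. Of 34 fibroblast and matrix genes 17 were higher and 1 lower, with a median of 0.40. The summed linear signal of the smooth muscle list was 40600 to 47000 in wild-type arrays and 52800 to 59800 in knockout arrays, and that of the fibroblast list 19700 to 22600 and 26500 to 29100. Smooth muscle gave 10 to 15 higher genes when each array was left out, while the fibroblast count was 9 without wild-type replicate 2 and 11 without knockout replicate 1 or 3.

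Actg2, the gamma actin of visceral smooth muscle, read 8.71, 8.39 and 8.69 in wild type and 9.75, 9.56 and 9.57 in knockout (1.03 ± 0.12, SE; limma adjusted p = 0.000168). Acta2, the main smooth muscle actin, rose by 0.43, from 12.61, 12.46 and 12.61 to 13.05, 12.86 and 13.06. Every knockout array was above every wild-type array for both. Synpo2, an actin bundler, rose by 1.17, Cnn1, calponin, by 0.64, and Tpm2, a tropomyosin, by 0.42. Pcp4, a calmodulin-binding protein on the same list, was the member that fell, by 0.93.

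In the matrix list, Col1a2, a chain of type I collagen, read 10.60, 10.31 and 10.59 in wild type and 11.18, 10.98 and 11.09 in knockout (0.58 ± 0.09, SE; limma adjusted p = 0.0017). Postn, periostin, rose by 0.88, Ogn and Fmod, small proteoglycans, by 0.80 and 0.73, Pdgfra, a receptor for platelet-derived growth factor, by 0.67, Mgp, matrix Gla protein, by 0.61, and Vim, vimentin, by 0.54. Col6a3, a chain of type VI collagen, was the member that fell, from 9.23, 9.33 and 9.13 to 8.09, 7.99 and 8.04 (-1.19 ± 0.11, SE; limma adjusted p = 2.37e-05). The part that the share of stroma in each sample has in these differences was not tested.

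Luminal markers as a list overlapped between the genotypes. Of 31 luminal genes 1 was higher, Dpp4 (2 without wild-type replicate 3), and 3 were lower (all genes: 5.88% higher, 3.2% lower), with a median of -0.04. Psca, which encodes prostate stem cell antigen, fell by 0.69, from 8.55, 8.60 and 8.44 to 7.89, 8.05 and 7.59. The 3 lower luminal genes became 1 when any wild-type array or knockout replicate 3 was left out. Of 22 basal genes 0 passed by limma (5 had an unadjusted p under 0.05), with 3 higher without wild-type replicate 2 and 1 without knockout replicate 1, and the basal keratin Krt5 averaged 8.83 and 9.08 (adjusted p = 0.0975), and it passed without wild-type replicate 2 (0.34, adjusted p = 0.0392). Of 8 neuroendocrine and 11 urothelial genes 0 passed by limma as well, with 0 and 1 at an unadjusted p under 0.05. The mean of the luminal list was 10.40 to 10.45 in wild-type arrays and 10.30 to 10.44 in knockout arrays.

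Markers of other cell types were measured as well. Endothelium had 1 of 20 genes higher, leukocytes 3 of 35 higher and Schwann cells 2 of 17 higher (all genes: 5.88% higher, 3.2% lower), and these counts were 0 without wild-type replicate 2 or knockout replicate 3 and 0 to 3 without each of the others. Of the 20 endothelial genes 19 had a positive difference (median 0.129), and of the 35 leukocyte genes 26 a negative one (median -0.105). Of 11 adipocyte genes 3 were lower (all genes: 3.2%), among them Car3, a carbonic anhydrase abundant in fat, at 7.47, 8.29 and 7.35 in wild type and 6.20, 5.73 and 6.36 in knockout. Adipoq, the fat hormone adiponectin, was low in both genotypes. The adipocyte list summed to 1830 to 2120 in wild-type arrays and 1860 to 2060 in knockout arrays.

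Skeletal muscle genes did not move together. Of 16 genes 2 were higher and 4 lower (all genes: 5.88% higher, 3.2% lower). Myh4, the fast myosin heavy chain of type IIb fibres, read 6.58, 6.42 and 6.70 in wild type and 4.85, 4.90 and 4.77 in knockout (-1.73 ± 0.10, SE; limma adjusted p = 5.18e-07). Myh2, the heavy chain of type IIa fibres, went the other way, at 7.57, 7.40 and 7.55 against 8.56, 8.56 and 8.65 (1.08 ± 0.10, SE; limma adjusted p = 2.37e-05). The 4 lower genes became 1 without wild-type replicate 1, wild-type replicate 3 or knockout replicate 2, and 2 without knockout replicate 3. The 2 higher genes became 1 without any array other than wild-type replicate 1.

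**Figure D4:**
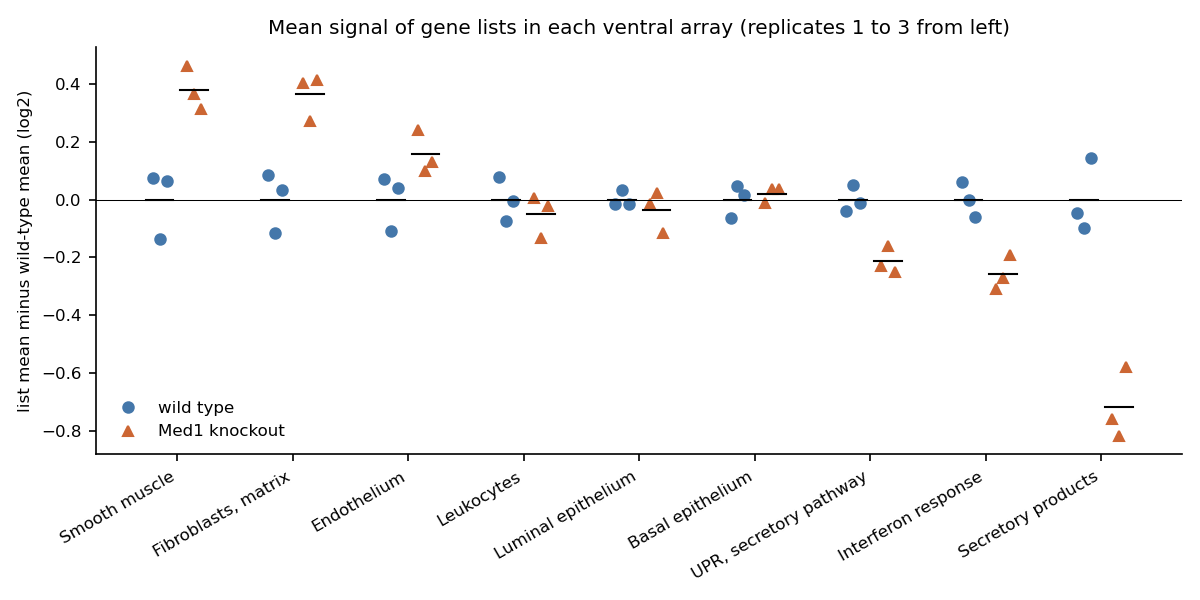
Each mark is the mean log2 signal of a gene list in 1 ventral array minus the wild-type mean of that list (y axis, log2), with circles for wild type, triangles for knockout and bars at the group means. The knockout arrays lie above all wild-type arrays for smooth muscle, fibroblasts and endothelium, below them for the secretory pathway, interferon and secretory lists, and overlap them for leukocytes and for luminal and basal epithelium.

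A number of growth signalling genes were higher. Of 79 genes of the Wnt, Hedgehog, TGF-beta and FGF pathways 21 were higher and 2 lower (all genes: 5.88% higher, 3.2% lower), with a median of 0.14. The count of higher genes was 12, 13 and 11 without wild-type replicate 1, 2 and 3, and the 2 lower became 1 without wild-type replicate 3 or knockout replicate 3. Among ligands, Inhba, which makes activin A, read 5.33, 5.45 and 5.67 in wild type and 7.23, 6.55 and 6.21 in knockout, a rise of 1.18 with wide spread in knockout. Another probe set of Inhba had a negative difference and did not pass. Bmp2 rose by 0.95 and Tgfb3 by 0.57. Among receptors, Lgr5, which binds R-spondins, rose by 1.05 and Tgfbr2 by 0.49. Of the 3 probe sets of Tgfbr2, 1 passed as higher and 1 had a negative difference that did not pass.

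Inhibitors and targets on the list moved as well. Hhip, which is induced by Hedgehog signals and binds their ligands, read 6.81, 6.70 and 6.83 against 7.46, 7.42 and 7.36 (0.63 ± 0.08, SE; limma adjusted p = 0.00033). Dusp6 and Spry1, feedback inhibitors of growth factor signalling, rose by 0.74 and 0.46. Immediate-early genes, which respond quickly to stimuli and to handling of tissue, had 5 of 37 higher and 1 lower (all genes: 5.88% higher, 3.2% lower), the last not passing without any 1 array except knockout replicate 2. Ccn2 and Ccn1, matricellular proteins, rose by 0.93 and 0.59, Gadd45b by 0.78 and Egr1 by 0.80, the last with 1 knockout array at 8.18 above the others at 7.38 and 7.44.

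Enzymes of fat burning were also among the higher genes. Of 39 PPAR targets and fatty acid oxidation genes 12 were higher and 1 lower (all genes: 5.88% higher, 3.2% lower), with a median of 0.12. Eci2, an enzyme that prepares unsaturated fatty acids for oxidation, read 8.872, 9.017 and 8.999 in wild type and 9.83, 9.69 and 9.84 in knockout (0.82 ± 0.09, SE; limma adjusted p = 6.05e-05). Vnn1, a pantetheinase, rose by 0.79, Acot1, a thioesterase, by 0.55, Slc25a20, which carries acylcarnitines into mitochondria, by 0.51, and Acadl, a dehydrogenase, by 0.43. The count of 12 became 6 without wild-type replicate 1 and 7 without wild-type replicate 3 or knockout replicate 3, and the 1 lower became 0 without wild-type replicate 1 or 2 or knockout replicate 3.

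Some antioxidant enzymes rose too. Of 47 genes 10 were higher and 1 lower (all genes: 5.88% higher, 3.2% lower), but the median of the list was 0.03, with 26 positive and 21 negative differences. Beside Mgst1 and Gstt1, Gsta4 rose by 0.59, Gstk1 by 0.56, Cat, catalase, by 0.52 and Sod2, the mitochondrial superoxide dismutase, by 0.50, while Gsta3 fell by 0.82. Of the 4 probe sets of Sod2, 2 passed as higher and 1 had a negative difference that did not pass. The 10 higher genes became 6 without wild-type replicate 2 or 3, and the 1 lower became 2 without wild-type replicate 1 or knockout replicate 2. Of 45 glycolysis and citrate cycle genes 6 were higher and 2 lower (all genes: 5.88% higher, 3.2% lower), and Ldhb, a lactate dehydrogenase, rose by 0.95. The 6 became 2 without wild-type replicate 2 or 3, and the 2 lower became 0 without any wild-type array or knockout replicate 1 and 1 without knockout replicate 3. Of 66 respiratory chain genes 2 were higher, a share below that of all genes, and these became 0 without any wild-type array or knockout replicate 1 and 1 without knockout replicate 3. Yet 51 of the 66 had a positive and 15 a negative difference, with a median of 0.09 (all genes: -0.02). Every knockout array lay above every wild-type array for 32 of them (all genes: 14.9%) and below for 4 (all genes: 14.6%).

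Lipid and polyamine synthesis genes were called in both directions. Of 41 cholesterol and fatty acid synthesis genes 2 were higher and 3 lower, 12.2% in all against 9.08% of all genes. Elovl7, a fatty acid elongase, rose by 0.55 and Fdps, of the cholesterol pathway, fell by 0.50. Of 18 polyamine genes 3 were higher and 2 lower, 27.8% in all, and Sat1, which acetylates polyamines for breakdown and export, read 10.31, 10.38 and 10.05 against 10.90, 10.94 and 10.70 (limma adjusted p = 0.00227). Without wild-type replicate 3 the counts were 1 higher and 1 lower cholesterol gene and 1 higher and 0 lower polyamine genes, and every other array except knockout replicate 1 also moved at least 1 of these counts by over 1.5 times.

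Proteases included both large falls and rises. Of 62 genes 10 were higher and 4 lower (all genes: 5.88% higher, 3.2% lower). Beside Mmp7, Adam7 and Dpp4, Ctsh, a lysosomal cathepsin, rose by 0.90, Adamts1, a matrix protease, by 0.84, Prss22 by 0.79 and Ctsz by 0.46, and Cpm, a membrane carboxypeptidase, fell by 0.68. Of 52 protease inhibitors 4 were higher and 2 lower, 11.5% in all against 9.08% of all genes, and the 4 became 2 without wild-type replicate 1 or 3 or knockout replicate 1, and 1 without wild-type replicate 2.

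Targets of the androgen receptor did not move in 1 direction. Of 72 androgen-response genes 12 were higher and 3 lower (all genes: 5.88% higher, 3.2% lower), with a median of 0.02. Pbsn and Lman1 were among the lower ones. Arid5b, a chromatin-binding factor, read 8.91, 8.87 and 9.01 in wild type and 9.58, 9.62 and 9.67 in knockout (0.69 ± 0.08, SE; limma adjusted p = 0.000181), and Tnfaip8, an apoptosis regulator, rose by 0.82. The 12 became 7 without wild-type replicate 3. Of 24 genes known from prostate regression after castration and from apoptosis 6 were higher (all genes: 5.88%), and the 6 became 3 without wild-type replicate 1 or 3 or knockout replicate 1 or 2.

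Of 44 nuclear receptors and coregulators 3 were lower and 0 higher by limma (4 and 8 at an unadjusted p under 0.05; all genes: 3.2% lower, 5.88% higher). The 0 higher became 1 without wild-type replicate 1 and 3 without knockout replicate 2. Gata2, a factor that works with the androgen receptor at prostate enhancers, was the largest of these, at 8.80, 8.92 and 9.39 in wild type and 7.78, 7.54 and 7.68 in knockout. Its groups were far apart, 2.58-fold (-1.37 ± 0.13, SE; limma adjusted p = 2.75e-05). Without 1 array the count of 3 became 1 or 2, with 1 when wild-type replicate 2 or 3 or knockout replicate 2 or 3 was left out. Of 50 cell cycle genes 4 were lower (all genes: 3.2%), and the 4 became 0 to 2 without any 1 array. Of 21 clock genes 0 passed by limma, with 3 at an unadjusted p under 0.05.

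The lateral lobe was used to ask where the ventral change differed. Med1 itself averaged 8.52 in lateral wild type and 8.39 in lateral knockout and did not pass there (-0.13, limma adjusted p = 0.622). Its ventral and lateral differences, -0.57 and -0.13, were not told apart by limma (adjusted p = 0.136). For each gene the lateral knockout difference was subtracted from the ventral one in the same fit, so that a constant offset between the lobes, which appear to have been normalized in separate runs, cancels. This difference passed for 1693 genes (9.31%), 875 of them among the 1652 ventral calls, while the lateral comparison alone gave 916 calls (5.03%). It passed for 29 of the 30 largest falls, all except Bank1, and for 25 of the 30 largest rises. Both sets were picked by the size of the ventral difference, which is part of this test. These counts therefore follow in part from that choice. Some of the 30 rises, such as Adam7 (4.35 and 4.30) and Plscr2 (4.29 and 4.32), had lateral means under 4.73 in both genotypes. That mark was set on the ventral arrays, so it is only a rough guide to lateral means. Of the 30 falls 2 also passed as lower in the lateral lobe, Pnliprp1 (-1.46) and Fam3b (-0.88), and 1 as higher, Myh4 (0.49). The lateral means of Myh4, 4.07 in wild type and 4.57 in knockout, both lay under 4.73.

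Several secretory genes that fell in the ventral lobe were near 0 in the lateral comparison. In the lateral lobe Pate14 differed by 0.06, Tgm4 by -0.02, Pbsn by 0.02, Fcgbp by -0.06 and Mmp7 by -0.10, and none of these 5 genes passed there. All 5 were very bright there, with lateral means from 12.96 (Mmp7, knockout) to 13.72 (Fcgbp, wild type). Whether a signal that bright hides a change was not tested. Of the 30 largest rises 10 also passed as higher in the lateral lobe and 5 as lower. Emb rose by 2.44 in the lateral lobe, H2bc18 by 1.86, Bex1 by 1.24, Tmem267 by 1.60 and B4galnt2 by 1.93, and the difference between lobes did not pass for these 5. Gsdmc2 fell in the lateral lobe, with a difference of -2.83, as did Ces1d (-1.75), Bex4 (-1.40), Clca1 (-1.29) and Prss23 (-0.61). Lateral Gsdmc2 fell to 3.54, under the ventral mark of 4.73, so its difference is treated as a bound. Clca1 lay under 4.73 in both lateral genotypes (4.44 and 3.16). Stromal lists moved in opposite directions: the lateral median was -0.46 for smooth muscle and -0.32 for fibroblast genes, and the difference between lobes passed for 22 of 26 and 23 of 34 genes.

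**Figure D5:**
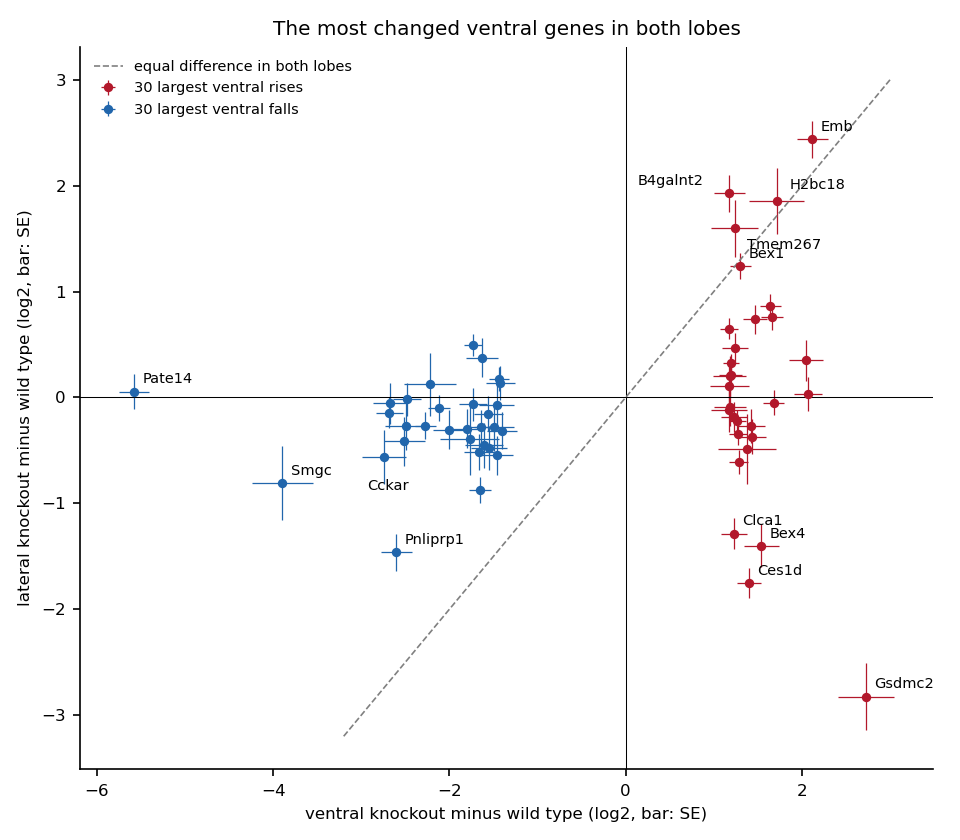
Each point is 1 of the 60 most changed ventral genes, with the knockout difference in the ventral lobe on the x axis and in the lateral lobe on the y axis (log2, bars: SE). Falls (blue) lie between -1.46 (Pnliprp1) and 0.49 (Myh4) on the lateral axis, while rises (red) range from Emb, at 2.12 and 2.44, to Gsdmc2, at 2.73 and -2.83.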

How the data were processed

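Total RNA of 12 arrays (4 groups of 3, by lobe and genotype) was read on Affymetrix expression arrays. Per the submitters' processing notes, the authors used Affymetrix Expression Console and RMA, and the deposited matrix holds the resulting log2 signal of each probe set. Tool versions are not stated there. Expression Console's RMA corrects background, sets arrays to 1 distribution and summarizes probes, which compresses large differences at low signal. Of 45101 probe sets 34958 had 1 symbol, and symbols were updated through Entrez identifiers in RefSeq's GRCm38.p6 table (34754 matched). Genotypes were compared with limma 3.58.1 in R 4.3.3 (lmFit, eBayes) on 4 group means over all 12 arrays, with 8 residual degrees of freedom and Benjamini-Hochberg adjustment over 18194 genes at 0.05. Arrays give no read depth, and 3 arrays a group limit the precision. The script was tested on simulated data.

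The comparison, the 40 gene lists (1494 genes, 1362 measured) and the tests were chosen with earlier results of these data known. The text names Med1, and, of the genes that passed with no overlap of arrays, the 30 that rose and the 30 that fell by most, leaving out uncharacterized loci, and at most 8 members of each list in order of p. Krt8, Krt18, Krt5, Foxa1, Svs2 and the genes said so in the text were picked after their values were seen. So were the mark for low signal, 4.73, and the 4-fold limit between lobes in wild type. Alternatives covered normalization, centring, dim genes, probe sets, variance models, thresholds, replicate blocks and left-out arrays.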

Additional observations from a re-analysis of the deposited data

Results flagged for a closer look

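Of the 154 genes named, 113 had a knockout difference that itself differed between the lobes (ventral minus lateral, in brackets in log2 units, limma adjusted p at most 0.0481), and 64 of these had opposite signs in the lobes. Over all genes the share was 9.31% (1693 of 18194). The named genes were picked largely by their ventral difference or its p, or after their values were seen. The count of 113 therefore follows in part from that choice. The lobes appear to have been normalized in separate runs, and lobe and run cannot be told apart. Lateral means lay under 4.73, a mark set on the ventral arrays alone, in both genotypes for several of these genes. They include Adam7, Plscr2, Pik3r6, Qpct, Nalcn, Clca1, Uts2r and Myh4. A lateral change in such genes may go unread, which limits what their values say about the lobes. Lateral means of Pate14, Tgm4, Fcgbp, Pbsn and Mmp7 were 12.96 or more. Whether a signal that bright hides a change was not tested. Secretory genes gave Pate14 (-5.63), Smgc (-3.09), Fcgbp (-2.62), Rnase1 (-2.54), Tgm4 (-2.46) and Mmp7 (-2.02), then Defa39 (-1.70), Pbsn (-1.31), Pnliprp1 (-1.14), Fam3b (-0.78), Msmb (-0.74), Apof (-0.50) and Qsox1 (-0.99). Psca stood at -1.08 and Gata2 at -1.21, and Ggh, which rose in the ventral lobe, at 0.81.

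Transport genes differed in both directions, with Stra6 (-2.23), Slc7a12 (-2.34), Atp12a (-2.10), Slc30a2 (-1.50), Slc7a5 (-0.84) and Aqp5 (-0.71) below the lateral change and Clca1 (2.52), Kcnq1 (1.84), Scnn1a (0.91), Slc43a1 (0.80) and Nalcn (1.29) above it. Receptors, enzymes and regulators that fell in the ventral lobe also stood below the lateral change: Cckar (-2.18), Chn2 (-2.01), Hs3st3a1 (-1.67), Uts2r (-1.61), Stmnd1 (-1.55) and Piezo2 (-1.41), and further Sp5 (-1.39), Gsdma (-1.36), Clic5 (-1.15), Upb1 (-1.08) and Serpinb11 (-0.92). Of the immune genes, H2-Q10 (-2.01), H2-Q5 (-1.22) and Naip6 (-1.09) did so as well. Genes of the secretory pathway gave Derl3 (-1.57), Creb3l4 (-0.70), Sdf2l1 (-0.68), Edem1 (-0.53) and Calr (-0.50), and Fut2 (-1.01), St6galnac4 (-0.98) and Ddit4 (-1.06) lay in the same direction. Interferon genes gave Stat2 (-0.78), Isg20 (-0.55) and Oasl1 (-0.41), with Ifit2 at 0.83.

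Stromal genes rose in the ventral and tended to be lower in the lateral lobe. Smooth muscle genes gave Synpo2 (1.70), Actg2 (1.63), Cnn1 (1.09), Acta2 (0.64) and Tpm2 (0.59), and matrix genes Pdgfra (1.41), Mgp (1.29), Ogn (1.23), Postn (1.09), Col1a2 (1.04), Fmod (0.80) and Vim (0.77). Col6a3 fell in both lobes but more in the ventral one (-0.59). Growth signalling genes gave Lgr5 (1.42), Bmp2 (1.13), Hhip (1.11), Inhba (0.98), Tgfb3 (0.97), Dusp6 (0.88) and Tgfbr2 (0.56), and immediate-early genes Ccn2 (1.07), Egr1 (0.83), Gadd45b (0.71) and Ccn1 (0.66). The basal keratin Krt5 stood at 0.72. Of the genes known from muscle and fat, Myh4 stood at -2.22, Car3 at -1.16 and Myh2 at 0.87.

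Gsdmc2 had the largest positive value (5.55), since it rose in the ventral and fell in the lateral lobe. Other large rises gave Ces1d (3.15), Bex4 (2.94), Plscr2 (2.03), Prss23 (1.89), Pik3r6 (1.87) and Chl1 (1.80), then Adam7 (1.73), Tmem45b (1.70), Efnb2 (1.69), Pde3b (1.62), Gpc4 (1.49), Bcl6 (1.41) and Arhgap24 (1.27). Smaller values were those of Qpct (1.07), Gldc (0.98), Gprc5a (0.78), Npnt (0.73) and Dpp4 (0.53). Metabolic and antioxidant genes gave Ldhb (1.70), Sat1 (0.90), Gstt1 (0.87), Vnn1 (0.86), Mgst1 (0.78), Eci2 (0.70), Acadl (0.61), Gsta4 (0.56) and Slc25a20 (0.52). Proteases and androgen-response genes gave Adamts1 (1.36), Prss22 (0.86), Arid5b (0.85) and Tnfaip8 (0.70).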

How the results depend on the processing

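Med1 and the counts of calls were recomputed under each alternative. Fitted on the 6 ventral arrays alone, 965 genes passed (648 higher, 317 lower), 925 of them also called in the fit on all arrays. At an adjusted p under 0.01, 666 passed (443 higher, 223 lower), the lobes differed for 723 genes and Med1 (adjusted p = 0.0119) did not pass. With at least 1.5-fold required, 634 passed (426 higher, 208 lower), and Med1, at -0.57, did not reach it. Leaving out each array in turn gave 941 to 1760 genes, 614 to 1114 higher and 327 to 646 lower, a difference between lobes for 1103 to 1732 genes, lowest without lateral wild-type replicate 3, and Med1 at -0.64 to -0.48. Single probe sets of Med1 that did not pass gave -0.40, -0.10 and -0.25. With each array centred on the median of the genes tested, 861 were higher and 926 lower.

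Further settings were chosen after seeing the data. Without ventral wild-type replicate 3 and lateral knockout replicate 3, 860 genes passed (567 higher, 293 lower) and the lobes differed for 973. Without ventral wild-type replicate 3 and ventral knockout replicate 3, 708 passed (438 higher, 270 lower), the lobes differed for 1122 and Med1 stood at -0.55 (adjusted p = 0.0545). Svs2, at -0.67, ranged from -1.49 to 0.88 when each ventral array was left out and was positive without wild-type replicate 3. It was also 0.88 without that array and lateral knockout replicate 3, where it passed (adjusted p = 0.00138), and 0.80 without it and ventral knockout replicate 3; the cause was not tested. In the settings not named so far the count stayed within 1.5 times, from 1465 with a replicate block within each lobe to 2150 with array weights.

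Replicate numbers are shared by the groups in the labels, which do not say whether the numbers pair the arrays. Deviations from the group means correlated weakly, at 0.04, 0.12 and 0.03 for ventral numbers 1, 2 and 3. Of 6 ventral arrays 4 correlated best with their own number. These values do not settle whether the arrays are paired. With a replicate block within each lobe 1465 genes passed (956 higher, 509 lower), and with a replicate block shared by both lobes 1492 (984 higher, 508 lower), with Med1 at -0.57 in both and the lobes differing for 1485 and 1558 genes.

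Over the 60 most changed genes and all settings, 1349 recomputed values kept their direction and side of the threshold and 15 kept their direction but did not pass. These genes were picked as the largest passing differences in the same arrays, so much of this follows from the choice. For the 93 other genes named besides Med1, 2035 values kept direction and side, and 92 kept direction but lost the call. A further 3 gained a call and 3 reversed direction. RMA values carry no detection calls, so falls into the low range are bounds.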
